A study of Homo sapiens with 12 samples.

Results

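The mean effect of dexamethasone (Dex), a synthetic glucocorticoid, on gene expression was measured across cells without and with KLA in HepG2, an established wild-type hepatocyte-like line derived from a human hepatoma. All 12 libraries of the series entered the comparison, as 6 libraries with Dex (3 Dex, 3 DexKLA) and 6 without Dex (3 DMSO, 3 KLA). Per the labels, all cells first spent 24 h in medium with charcoal-stripped serum, which removes most steroid hormone, and were then treated for 24 h. The Dex group received 50 nM Dex, the DMSO group 0.1% DMSO as vehicle, the DexKLA group 50 nM Dex with KLA at a labelled 100 ng/µl, and the KLA group KLA alone at that dose. The labels do not spell out KLA, and they give the DMSO percentage for the vehicle group alone. The effect of Dex was taken as the average of Dex minus DMSO and DexKLA minus KLA on the log2 scale. It was fitted for 13166 genes that passed a filter on low counts, out of 28256 gene symbols. A gene was called where the p from the quasi-likelihood test of edgeR, adjusted over all 13166 genes by the Benjamini-Hochberg method, was under 0.05. Levels are CPM, a library's counts scaled to a total of 1000000 after TMM adjustment of that total, and changes are fitted log2 values ± standard error. Since CPM is not divided by transcript length, levels are compared between groups and not between genes.

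Dex enters cells and binds the glucocorticoid receptor, the product of NR3C1, which leaves its chaperone complex, moves to the nucleus and acts on transcription at many sites. It raises some genes by binding DNA directly and lowers others, in part through contact with other transcription factors. In liver cells glucocorticoids are best known for their actions on gluconeogenesis, acute phase proteins and drug metabolism, and for the feedback gene FKBP5.

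Library totals over genes ran between 3642693 and 17782049 with Dex, between 3317739 and 5277467 with DMSO, between 4514613 and 11484501 with DexKLA and between 15998667 and 20933501 with KLA. The labels do not say whether libraries of a group came from separate cultures, so the p-values measure only the spread between these libraries. In bulk RNA, fewer cells of a kind and less RNA per cell cannot be told apart. All 13 hepatocyte markers were detected and tested. Of 7 cholangiocyte, 9 stellate or fibroblast, 7 endothelial and 9 leukocyte or Kupffer cell markers, 5, 2, 1 and 3 passed the count filter, and only SPP1 among them was called (−0.38 ± 0.08, adjusted p = 0.0175). Over the 12 libraries these lists summed to 789 to 1210, 37.5 to 54.6, 3.32 to 7.05 and 3987 to 4699 plain CPM. LYZ, lysozyme, averaged 4122 CPM with Dex, 4034 with DMSO, 4141 with DexKLA and 4637 with KLA, and so made up most of the last sum. CFTR of the cholangiocyte list, COL1A2 and THY1 of the stellate or fibroblast list, KDR and CLEC4G of the endothelial list, and CD163, MARCO and CD3E of the leukocyte or Kupffer cell list were at 0 in all 12 libraries. SPP1 lost its call without DMSO replicate 2, Dex replicate 1, Dex replicate 2 or DexKLA replicate 2 (highest adjusted p = 0.0624). Transcript length moved with the change in each KLA state, in opposite directions. Spearman's rho between length and log2 change, across 13166 genes that are not independent replicates, was −0.45 for Dex versus DMSO, 0.49 for DexKLA versus KLA and −0.09 for their mean.

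Dex raised 115 genes and lowered 84 in the mean over both KLA states. They made up 0.873% and 0.638% of the genes tested, and 1.51% together. Most changes were small. The median size over the 199 called genes was 0.54 on the log2 scale, 113 of them changed by less than 1.5-fold, and 32 changed by more than 2-fold (25 higher and 7 lower). The median change of all genes tested was −0.0019. Scaling by library size alone in place of TMM gave 90 higher and 107 lower calls. Dex versus DMSO alone called 270 genes (2.05%), and DexKLA versus KLA alone called 86 (0.653%). Of the 199 genes, 37 were called in both states, 72 in Dex versus DMSO alone, 35 in DexKLA versus KLA alone and 55 in neither. Of those 55, 7 kept their call when any 1 of the 12 libraries was left out. In 105 of the 199, the 6 libraries with Dex lay entirely above (68) or entirely below (37) the 6 without. Among all genes tested, 0.6% lay entirely above and 0.448% entirely below. These shares include the called genes.

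**Figure D1:**
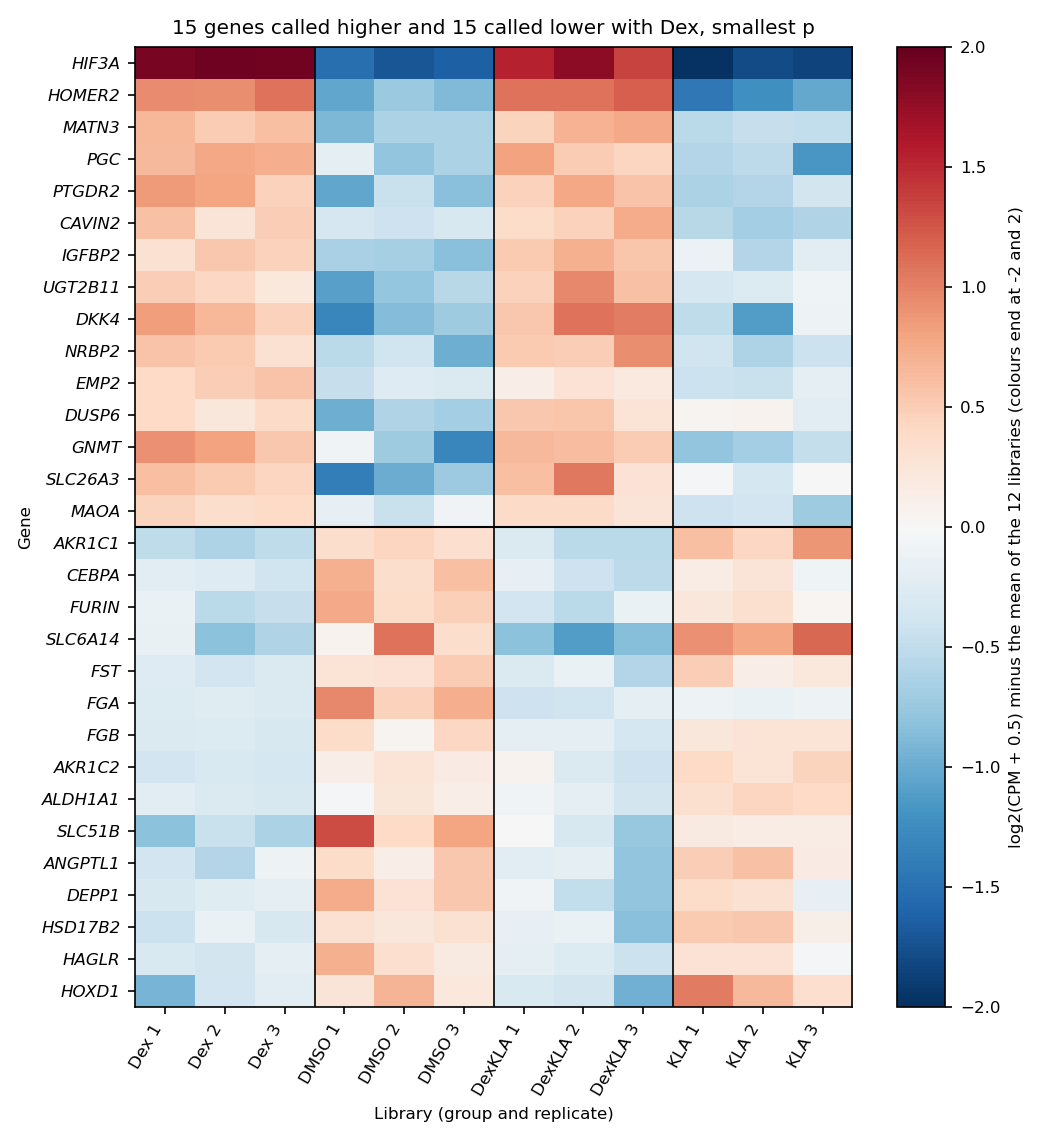
Levels of the 15 genes called higher (top) and the 15 called lower (bottom) with the smallest p for the mean effect of Dex, with a column per library ordered as Dex, DMSO, DexKLA and KLA. Colour is log2(CPM + 0.5) minus the gene's mean over the 12 libraries. Rows above the line are redder with Dex and rows under it bluer, and DEPP1 is the row in which the 6 libraries with Dex overlap the 6 without.

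The receptor itself did not pass the test, and the best-known feedback gene rose. NR3C1 had 33.3, 20.8 and 29.9 CPM with Dex, against 32.7, 29.1 and 36.7 with DMSO. It had 31.6, 30.6 and 27.0 CPM with DexKLA, against 29.7, 29.1 and 20.3 with KLA. The groups overlapped in both states (−0.06 ± 0.12, adjusted p = 0.947). FKBP5, an immunophilin that sits on the receptor's chaperone complex and lowers its hormone affinity, had 37.7, 39.5 and 35.6 CPM with Dex, against 22.5, 25.3 and 29.2 with DMSO. It had 36.3, 33.0 and 48.6 CPM with DexKLA, against 15.4, 18.0 and 24.5 with KLA. Every library with Dex lay above every library without it, and the mean rise was 0.80 ± 0.12 (adjusted p = 0.000261). FKBP5 was called in DexKLA versus KLA and not in Dex versus DMSO (adjusted p = 0.0856), and its difference between the states did not pass (adjusted p = 0.223). NR3C2, the related mineralocorticoid receptor, had 0 to 6 counts per library, and TSC22D3, a common glucocorticoid target, had 3 to 22. Neither was tested.

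An uncharacterised RNA at the start of the FKBP5 gene, LOC285847, was picked out after its values were seen. Its transcript (chr6:35726762-35736947, minus strand, hg38) covers the annotated start of the FKBP5 transcript (chr6:35573585-35728583, minus strand), so that some reads could belong to either. It had 14, 29 and 8 counts with Dex, against 0 in each DMSO library, and 5, 4 and 16 counts with DexKLA, against 2, 2 and 4 with KLA. Pooled counts over pooled totals were at least 6.66-fold higher with Dex than with DMSO, the lower bound of an exact 95% interval, and 8.49 times the 3 counts that a count of 0 over the DMSO group allows. The ratio of DexKLA to KLA was 6.86 (exact 95% interval 3.00 to 17.6, counting error only). The gene was called (adjusted p = 0.000156).

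Of 27 tested genes in a list of textbook glucocorticoid targets, 5 rose, 1 fell and 21 did not pass, and the median change was −0.04. The risers were FKBP5, KLF9, MT2A, ERRFI1 and CEBPD. KLF9, a zinc finger repressor, had 28.0, 24.8 and 22.9 CPM with Dex, against 15.8, 18.7 and 18.3 with DMSO, and 25.6, 29.7 and 26.2 CPM with DexKLA, against 15.5, 13 and 13.8 with KLA. The 6 libraries with Dex lay above all others (0.72 ± 0.10, adjusted p = 9.45e-05). MT2A, a metal-binding metallothionein, ranged over 143 to 212 CPM with Dex in both states and over 97.3 to 142 CPM without it (0.63 ± 0.09, adjusted p = 0.00026). It was called in Dex versus DMSO (0.79) and not in DexKLA versus KLA (0.46, adjusted p = 0.147), and that difference did not pass (adjusted p = 0.286). Among 13 tested metallothionein and zinc genes, MT2A alone rose and SLC39A14 alone fell, with a median of −0.04. ERRFI1, an intracellular inhibitor of the EGF receptor, ranged over 202 to 283 CPM with Dex and over 122 to 178 CPM without it (0.64 ± 0.10, adjusted p = 0.0003). CEBPD, a transcription factor of the C/EBP family, rose less (0.57 ± 0.11, adjusted p = 0.00443), and its groups overlapped. SGK1, a kinase that glucocorticoids raise in many tissues, moved the other way. It had 23.8, 24.4 and 25.9 CPM with Dex, against 44.5, 40.6 and 43.2 with DMSO. It had 28.3, 29.2 and 28.1 CPM with DexKLA, against 38.6, 31.6 and 26.5 with KLA. The Dex and DMSO libraries were far apart and the DexKLA and KLA libraries overlapped (mean −0.48 ± 0.09, adjusted p = 0.00545). PER1, a clock repressor (0.31 ± 0.13, adjusted p = 0.432), DUSP1, a MAP kinase phosphatase (−0.08 ± 0.19, adjusted p = 0.956), and TAT, tyrosine aminotransferase (0.26 ± 0.16, adjusted p = 0.68), did not pass. The count of 6 in 27 (22.2%) stands beside 1.51% of all genes. The list and its members were chosen with earlier results of these data known, so that count is a description only. A second list, of the receptor with its chaperones and cofactors, held FKBP5 as its only call among 18 tested.

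**Figure D2:**
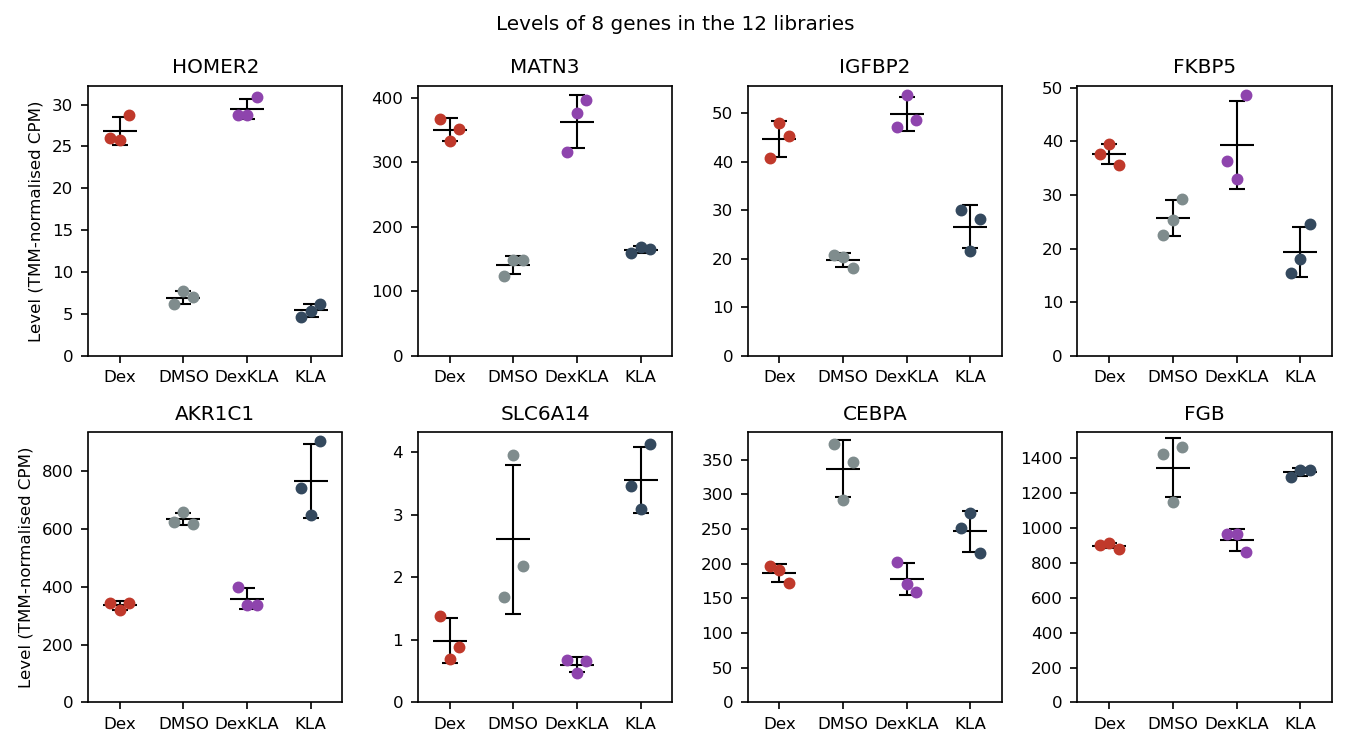
Levels (TMM-normalised CPM, each axis from 0) of 8 genes in the 12 libraries, in the order Dex, DMSO, DexKLA and KLA; points are libraries, and bars give the mean ± SD of 3. In the 4 upper panels both groups with Dex lie above both groups without it, and in the 4 lower panels they lie beneath.

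HIF3A had the greatest fitted change of any gene tested. Its product belongs to the alpha subunits of the hypoxia-inducible factors, and some of its isoforms hold back the others. The files counted a transcript at chr19:46303619-46343433 on the plus strand. Its counts were 28, 140 and 36 with Dex, against 1 in each DMSO library, and 52, 31 and 62 with DexKLA, against 1, 3 and 2 with KLA. Scaled to depth, that was 7.76, 8.03 and 7.92 CPM with Dex and 5.94, 7.20 and 5.15 CPM with DexKLA, against 0.0641 to 0.282 CPM in libraries without Dex. Pooled counts over pooled totals were 51.8-fold higher with Dex than without it (exact 95% interval 27.0 to 114, counting error only). The ratio was 34.0 for Dex over DMSO (11.5 to 166) and 53.1 for DexKLA over KLA (23.8 to 147), intervals that overlap widely. The fitted change was 5.34 ± 0.26 (adjusted p = 7.98e-12). Among 24 tested hypoxia factors and targets, 4 rose (16.7%, beside 1.51% of all genes called), none fell, and the median change was 0.04. Besides HIF3A these were P4HA1, a subunit of the collagen prolyl hydroxylase, DDIT4, an inhibitor of mTORC1, and BNIP3, a mitochondrial receptor of mitophagy. P4HA1 had 825, 702 and 801 CPM with Dex, against 365, 470 and 512 with DMSO, and 973, 1035 and 550 with DexKLA, against 670, 578 and 543 with KLA. The Dex and DMSO libraries were apart, whereas DexKLA replicate 3 fell among the KLA libraries (mean 0.65 ± 0.12, adjusted p = 0.00337). DDIT4 (0.43 ± 0.10, adjusted p = 0.0247) and BNIP3 (0.41 ± 0.10, adjusted p = 0.0401) were higher with Dex than with DMSO and close to 0 in DexKLA versus KLA, where their changes were 0.05 and 0.13. The test of that difference did not pass for either (adjusted p = 0.063 and 0.118). Both lost the call for the mean effect, which leaves 2 of the 4, without Dex replicate 1, Dex replicate 3, DMSO replicate 2, DexKLA replicate 1, DexKLA replicate 2 or KLA replicate 2.

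HOMER2, CAVIN2, EMP2 and SLC26A3 were each higher in every library with Dex than in every library without it. HOMER2, a scaffold that ties receptors to calcium stores, had 26.1, 25.8 and 28.8 CPM with Dex, against 6.19, 7.72 and 6.98 with DMSO. It had 28.8, 28.8 and 30.9 CPM with DexKLA, against 4.62, 5.41 and 6.25 with KLA. No library with Dex came near one without it, and the mean rise was 2.18 ± 0.11 (adjusted p = 7.98e-12). The other Homer genes, looked at for contrast, did not pass, with −0.16 ± 0.11 for HOMER1 (adjusted p = 0.716) and −0.22 ± 0.10 for HOMER3 (adjusted p = 0.54). CAVIN2, a coat protein of caveolae, had 78.2, 62.0 and 73.2 CPM with Dex, against 41.1, 38.8 and 41.2 with DMSO, and 66.9, 71.5 and 87.4 CPM with DexKLA, against 35.3, 32.1 and 33.9 with KLA. Its groups did not overlap (0.98 ± 0.09, adjusted p = 1.92e-07). HOMER2 and CAVIN2 were the only calls among 9 tested caveolar and scaffold genes. That list was chosen with earlier results of these data known, so its count is a description only. EMP2, a tetraspan membrane protein, ranged over 143 to 194 CPM with Dex and over 94.3 to 114 CPM without it (0.69 ± 0.07, adjusted p = 4.35e-06). SLC26A3, an anion exchanger of the gut, had 32.7, 30.8 and 28.8 CPM with Dex, against 7.88, 10.4 and 12.7 with DMSO, and 32.4, 44.6 and 26.2 CPM with DexKLA, against 20.8, 16.6 and 21.3 with KLA. KLA libraries lay above DMSO libraries, and libraries with Dex above both (1.17 ± 0.13, adjusted p = 6e-06).

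MATN3, IGFBP2, DKK4 and FSTL3 rose with Dex and FST fell. MATN3, a matrilin of cartilage matrix, had 367, 333 and 352 CPM with Dex, against 124, 149 and 149 with DMSO, and 316, 376 and 396 CPM with DexKLA, against 160, 169 and 166 with KLA. The groups were widely apart (1.22 ± 0.08, adjusted p = 5.96e-10). IGFBP2, a carrier that binds insulin-like growth factors, had 40.8, 48.0 and 45.3 CPM with Dex, against 20.8, 20.5 and 18.1 with DMSO. In DexKLA libraries it ranged over 47.2 to 53.9 CPM, against 21.6 to 30.1 with KLA, with no overlap (1.05 ± 0.10, adjusted p = 4.09e-07). DKK4, which blocks Wnt co-receptors, had 31.6, 27.9 and 24.2 CPM with Dex, against 6.76, 9.33 and 10.5 with DMSO, and 25.7, 37.8 and 36.1 CPM with DexKLA, against 12.2, 7.83 and 16.3 with KLA. It also separated fully (1.54 ± 0.16, adjusted p = 2.44e-06) and was the only call among 20 tested Wnt feedback genes. Both activin-binding proteins of the follistatin family were called, in opposite directions. FST had 285, 260 and 278 CPM with Dex, against 411, 413 and 482 with DMSO, and 278, 310 and 226 CPM with DexKLA, against 479, 372 and 394 with KLA (−0.64 ± 0.09, adjusted p = 0.0001). FSTL3 ranged over 36.8 to 47.5 CPM with Dex and over 21.5 to 34.9 CPM without it (0.68 ± 0.11, adjusted p = 0.000745). Neither overlapped between the 6 libraries with Dex and the 6 without.

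In the list of activin, TGF-beta and matrix genes, 30 were tested and 20% were called, beside 1.51% of all genes. MATN3 and FSTL3 rose and FST, THBS1, TGFBI and CCN2 fell. THBS1, thrombospondin 1, an activator of latent TGF-beta, fell by 0.68 ± 0.12 on the log2 scale (adjusted p = 0.00285). FURIN, a protease that cuts many growth factor and hormone precursors, had 61.3, 46.0 and 48.4 CPM with Dex, against 114, 86.8 and 93.4 with DMSO. It had 51.1, 46.0 and 61.3 CPM with DexKLA, against 78.6, 83.6 and 68.8 with KLA. Each library with Dex lay beneath each library without it (−0.73 ± 0.10, adjusted p = 6.84e-05). ANGPTL1, a secreted angiopoietin-like protein, ranged over 12.9 to 21.1 CPM with Dex and over 24.9 to 34.3 CPM without it (−0.80 ± 0.13, adjusted p = 0.000576).

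Feedback on the ERK kinases gave a mixed picture, with 2 higher, 2 lower and 26 not passing of 30 tested. The share called was 13.3%, beside 1.51% of all genes. DUSP6, a phosphatase that switches off ERK, had 268, 238 and 264 CPM with Dex, against 104, 134 and 127 with DMSO, and 297, 299 and 245 CPM with DexKLA, against 211, 214 and 174 with KLA. The KLA libraries were already above the DMSO libraries, and the libraries with Dex were above both (0.78 ± 0.08, adjusted p = 4.74e-06). Its rise was called in Dex versus DMSO (1.07) and not in DexKLA versus KLA (0.49, adjusted p = 0.0563). The difference between the states did not pass (adjusted p = 0.0682). ERRFI1 was the other riser. AREG, a ligand of the EGF receptor, had 1.94, 2.41 and 1.76 CPM with Dex, against 5.07, 5.74 and 4.80 with DMSO, and its DexKLA and KLA libraries overlapped (mean −0.85 ± 0.18, adjusted p = 0.0144). It lost the call without DMSO replicate 2 (adjusted p = 0.0663). PHLDA1 fell by 0.28 ± 0.07 on the log2 scale (adjusted p = 0.0323) and was not called without DMSO replicate 2 either. PTGDR2, a receptor for prostaglandin D2, had 30.5, 29.1 and 23.3 CPM with Dex, against 7.88, 12.2 and 9.17 with DMSO, and 23.3, 28.8 and 24.9 CPM with DexKLA, against 10.6, 10.9 and 12.8 with KLA. It separated fully (1.31 ± 0.12, adjusted p = 1.92e-07). However, PTGDR2 shares exon sequence with CCDC86 on the other strand, and the strand of the reads is not given in the sources used here. DUSP6 likewise has an exon overlap of 1632 bases with AC024909.2 on the other strand, so some of its reads could belong to either. Of 26 inflammation and NF-kB genes tested, IL1RN, the secreted antagonist of interleukin 1, was the only call (0.34 ± 0.08, adjusted p = 0.0188). Outside that list, the cytokine receptors IL1R1 (−0.53 ± 0.11, adjusted p = 0.0141) and OSMR (−0.47 ± 0.10, adjusted p = 0.0142) were called lower. Their changes were −0.17 and −0.04 for DexKLA versus KLA, and they kept the call in 10 and 9 of the 12 fits that left out 1 library.

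Of 26 tested enzymes that reduce or oxidise steroids and aldehydes, 5 fell and 2 rose, and the median change was −0.0048. The share called was 26.9%, beside 1.51% of all genes. AKR1C1, which inactivates progesterone, had 344, 319 and 344 CPM with Dex, against 624, 657 and 618 with DMSO. It had 400, 337 and 338 CPM with DexKLA, against 743, 649 and 904 with KLA. The highest library with Dex (400) stood far beneath the lowest without it (618), and the gene was called (−1.01 ± 0.08, adjusted p = 1.05e-07). AKR1C2, its close paralog, ranged over 195 to 272 CPM with Dex and over 285 to 352 CPM without it (−0.55 ± 0.08, adjusted p = 0.000209). AKR1C3, in the same gene cluster and named for contrast, stood at 0.01 ± 0.09 (adjusted p = 0.989), and its sign depended on the setting. The AKR1C genes are alike enough for reads to be split between them, so the size of each change is uncertain. HSD17B2, which oxidises estradiol and testosterone, ranged over 49.7 to 81.0 CPM with Dex and over 96.4 to 129 CPM without it (−0.66 ± 0.11, adjusted p = 0.000745). ALDH1A1, a retinaldehyde dehydrogenase, ranged over 255 to 310 CPM with Dex and over 320 to 442 CPM without it (−0.49 ± 0.07, adjusted p = 0.000278). The fifth was AKR1B10, an aldose reductase relative, and the risers were HSD17B6 and HSD17B11. HSD17B11 kept its call in 3 of the 12 fits that left out 1 library, those without DMSO replicate 3, KLA replicate 3 or DexKLA replicate 3 (highest adjusted p = 0.135). In a separate list, 24 targets of NRF2, the factor of the antioxidant response, were tested. GPX2 and HMOX1 fell and none rose (8.33% called, beside 1.51% of all genes), with a median of −0.13. Neither was called without Dex replicate 1, Dex replicate 3, DMSO replicate 1 or DexKLA replicate 1.

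Promoter windows were searched for the core of the receptor's palindromic site, spelled ACANNNTGT, which reads the same on both strands. In RefSeq promoter windows (GRCh38.p14, 250 bases before to 50 after each gene's start), it occurred in 7 of 92 genes called higher (7.61%), 3 of 65 called lower (4.62%), 2.56% of 10052 genes tested and 5.45% of all 27305 windows. These shares are given without a test. Of the 30 genes with the smallest p, 26 were matched to a window, and the core was found for CAVIN2, DUSP6, GNMT, AKR1C1 and AKR1C2. Also searched on both strands were AGAACA, one arm of the palindrome, and the C/EBP string TTGCNNAA. The arm was in 12 of the 92 windows of genes called higher (13.04%) and 5 of the 65 of genes called lower (7.69%). It was in 8.92% of those tested and 14.85% of all 27305 windows. The C/EBP string was in 12 of the 92, 11 of the 65, 6.76% of those tested and 10.56% of all windows. The antioxidant response element was in 5 of the 92, 2 of the 65, 2.95% of those tested and 3.26% of all windows. Among the 26 matched genes, the C/EBP string was in the windows of HIF3A, which rose, and of FGA and FGB, which fell. The counted HIF3A transcript starts outside its window. The windows are shown for 3 risers and for AKR1C1, in which the counted transcript starts inside the window, with the receptor core in capitals. Its first base lies 137 bases before the start of CAVIN2, 102 before DUSP6, 119 before AKR1C1, and within the first 50 transcribed bases of GNMT. The windows are chr2:191847039-191847338 (minus strand), chr12:89352452-89352751 (minus), chr6:42960504-42960803 (plus) and chr10:4963165-4963464 (plus).
CAVIN2: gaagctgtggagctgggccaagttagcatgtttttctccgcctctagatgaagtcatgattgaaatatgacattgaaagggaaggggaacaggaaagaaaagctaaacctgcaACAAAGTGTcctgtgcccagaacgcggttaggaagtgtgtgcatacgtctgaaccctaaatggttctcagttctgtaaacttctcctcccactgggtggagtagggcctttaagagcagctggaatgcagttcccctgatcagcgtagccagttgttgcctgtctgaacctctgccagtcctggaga
DUSP6: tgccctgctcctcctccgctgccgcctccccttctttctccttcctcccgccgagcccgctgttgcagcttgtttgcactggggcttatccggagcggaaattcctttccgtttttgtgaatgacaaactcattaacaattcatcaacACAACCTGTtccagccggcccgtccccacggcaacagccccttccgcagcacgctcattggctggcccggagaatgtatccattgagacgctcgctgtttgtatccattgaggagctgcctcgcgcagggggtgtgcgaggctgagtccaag
GNMT: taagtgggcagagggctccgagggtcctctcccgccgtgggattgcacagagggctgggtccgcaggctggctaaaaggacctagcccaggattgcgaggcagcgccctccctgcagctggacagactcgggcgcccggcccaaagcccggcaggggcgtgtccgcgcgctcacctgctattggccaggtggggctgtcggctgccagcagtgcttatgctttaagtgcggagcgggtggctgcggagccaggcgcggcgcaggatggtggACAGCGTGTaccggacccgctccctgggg
AKR1C1: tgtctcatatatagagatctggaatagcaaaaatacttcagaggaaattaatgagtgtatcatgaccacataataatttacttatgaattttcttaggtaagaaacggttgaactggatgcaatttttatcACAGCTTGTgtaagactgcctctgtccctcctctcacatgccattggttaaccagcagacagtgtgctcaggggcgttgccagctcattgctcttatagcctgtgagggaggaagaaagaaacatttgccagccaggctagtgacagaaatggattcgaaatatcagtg

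The AKR1C2 window holds the same core inside a run of 245 bases identical to the AKR1C1 window, and both windows match at 264 of 296 bases when shifted by 4. The AKR1C2 transcript that was counted starts elsewhere. A match of letters shows neither binding nor its absence.

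Enzymes of drug metabolism were called higher only. Of 28 tested, 4 rose (14.3% called, beside 1.51% of all genes), none fell and the median change was 0.09. UGT2B11, a glucuronosyltransferase, had 51.8, 48.9 and 42.7 CPM with Dex, against 16.9, 21.2 and 24.7 with DMSO, and 50.5, 71.5 and 55.3 CPM with DexKLA, against 28.8, 30.1 and 34.3 with KLA. Its 12 libraries separated by Dex (1.05 ± 0.10, adjusted p = 1.41e-06), although the UGT2B genes are close copies. CYP3A5 had 15, 16.6 and 12.3 CPM with Dex, against 6.19, 6.10 and 7.86 with DMSO, and 14.2, 16.2 and 16.1 CPM with DexKLA, against 8.14, 9.23 and 10.9 with KLA (0.93 ± 0.13, adjusted p = 9.97e-05). CYP3A7, the fetal form, ranged over 29.7 to 37.1 CPM with Dex and over 17.9 to 25.9 CPM without it (0.70 ± 0.10, adjusted p = 0.000128), and its reads cannot be told from those of a readthrough transcript into a pseudogene. CYP3A43 also rose (1.54 ± 0.27, adjusted p = 0.002), but its DMSO replicate 1 with 2.25 CPM lay above Dex replicate 2 with 1.72. CYP3A4, the main adult form and a member of the hepatocyte markers, had 0.88 to 3.33 CPM with Dex, 0.179 to 1.75 with DMSO, 1.58 to 1.86 with DexKLA and 0.821 to 1.40 with KLA. It did not pass at this depth (0.58 ± 0.35, adjusted p = 0.682).

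The 3 fibrinogen genes fell with Dex, and AFP rose. FGB had 904, 913 and 882 CPM with Dex, against 1422, 1151 and 1463 with DMSO, and 968, 968 and 860 CPM with DexKLA, against 1294, 1331 and 1333 with KLA. The groups did not overlap (−0.54 ± 0.08, adjusted p = 0.000161). FGA had 943, 965 and 936 CPM with Dex, against 2210, 1575 and 1877 with DMSO, and 858, 862 and 999 CPM with DexKLA, against 1057, 1034 and 1066 with KLA. Here KLA libraries were themselves beneath the DMSO libraries, and libraries with Dex were beneath both (−0.60 ± 0.08, adjusted p = 0.000115). With KLA the gap was narrow and depended on the scaling. In plain CPM the highest DexKLA library (1047) lay above the lowest KLA library (1022). FGA was not called in DexKLA versus KLA (adjusted p = 0.521). The fall of FGA was 0.99 on the log2 scale for Dex versus DMSO and 0.22 for DexKLA versus KLA, a difference of 0.78 that did not pass (adjusted p = 0.0544). FGG fell less (−0.36 ± 0.08, adjusted p = 0.0216). AFP, the fetal albumin relative that hepatoma cells secrete, had 33140, 31956 and 35394 CPM with Dex, against 13699, 15824 and 16282 with DMSO. It had 41329, 39664 and 26861 CPM with DexKLA, against 22479, 21880 and 20941 with KLA. All libraries with Dex exceeded all others (0.93 ± 0.11, adjusted p = 1.26e-05). ALB, its neighbour on chromosome 4 and named for contrast, did not pass (0.17 ± 0.11, adjusted p = 0.695).

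Summed levels of the 13 hepatocyte markers, in plain CPM and dominated by ALB and AFP, were 130470 to 138040 with Dex, against 101060 to 115750 with DMSO, and 125610 to 152430 with DexKLA, against 120110 to 128460 with KLA. The part of that sum in the falls of other plasma proteins was not tested. Of 26 coagulation genes, 26.9% were called, beside 1.51% of all genes. CPB2, a carboxypeptidase that slows clot lysis, rose (0.41 ± 0.08, adjusted p = 0.00846). Its change was 0.64 for Dex versus DMSO and 0.18 for DexKLA versus KLA (adjusted p = 0.595 for the latter). In this list 6 fell, namely the fibrinogen genes with VTN, SERPIND1 and KNG1. Of the 6 that fell, 2 (FGA and FGB) kept their call in all 12 fits that left out 1 library, and only these 2 were called without Dex replicate 3, DMSO replicate 1, DMSO replicate 3 or KLA replicate 2. Of 26 acute phase genes (26.9% called), MT2A and CEBPD rose and FGA, FGB, FGG, HAMP and SERPINA3 fell, with a median of −0.16. The fibrinogen genes count in both lists. Of 22 complement genes (9.09% called), MBL2, mannose-binding lectin (−0.63 ± 0.12, adjusted p = 0.00411), and C8B (−0.72 ± 0.14, adjusted p = 0.00545) fell and none rose. MBL2 changed by −1.02 for Dex versus DMSO and by −0.24 for DexKLA versus KLA (adjusted p = 0.607 for the latter). The test of the difference between states did not pass for CPB2 or MBL2 (adjusted p = 0.112 and 0.0759). Of 29 other plasma and apolipoprotein genes (17.2% called), IGFBP2, AFP, APOC1 and APOC2 rose and RBP4, the carrier of retinol, fell. APOC1 ranged over 311 to 428 CPM with Dex and over 213 to 309 CPM without it (0.52 ± 0.08, adjusted p = 0.000745). APOC2, the cofactor of lipoprotein lipase, ranged over 360 to 482 CPM with Dex and over 256 to 347 CPM without it (0.49 ± 0.08, adjusted p = 0.000907), and it shares exons with the readthrough gene APOC4-APOC2.

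**Figure D3:**
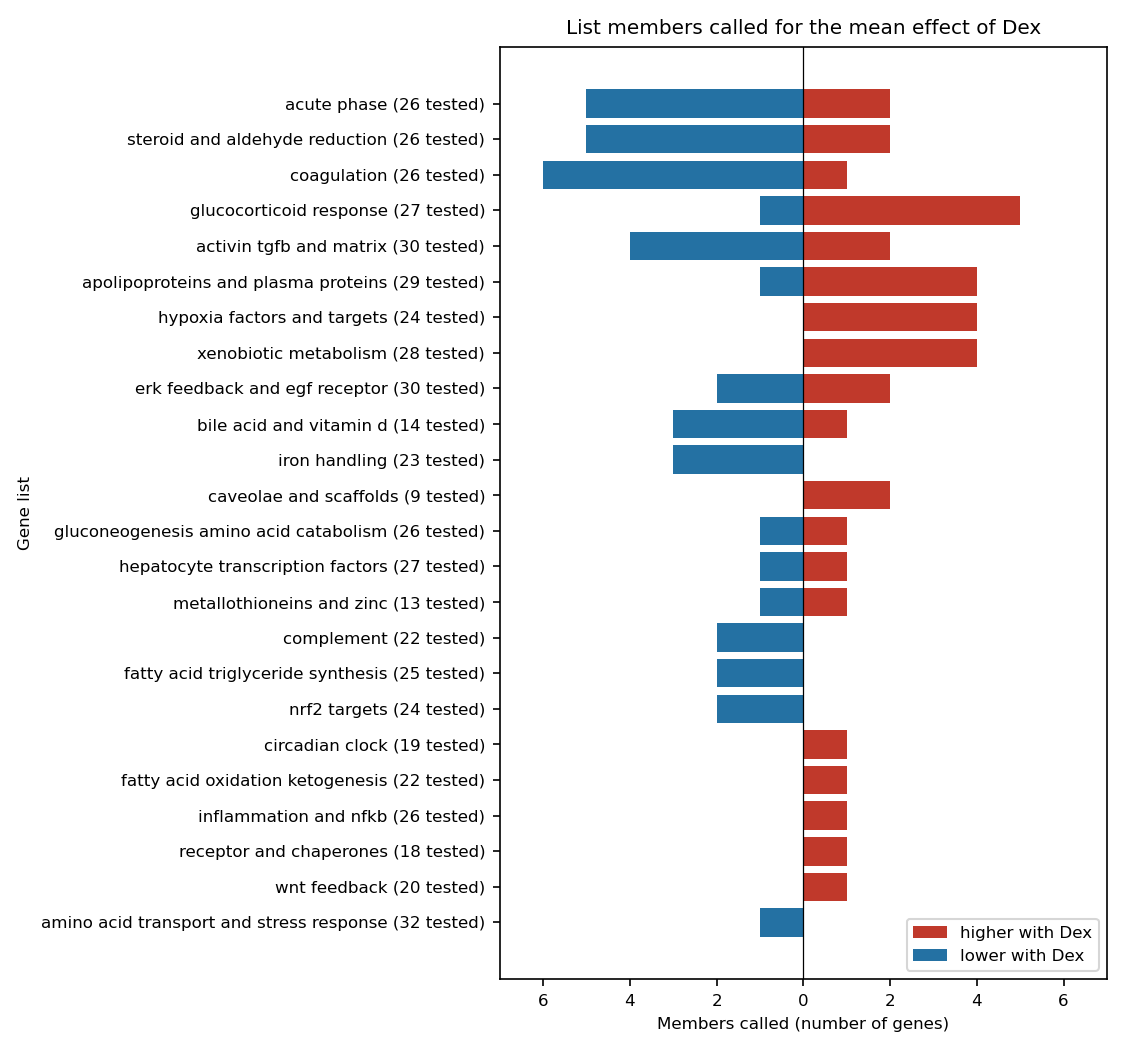
Number of list members called for the mean effect of Dex, to the right in red for genes higher with Dex and to the left in blue for genes lower with Dex, for the lists with at least 1 call; the number tested is in brackets. Coagulation has 1 higher and 6 lower, steroid and aldehyde reduction 2 and 5, glucocorticoid response 5 and 1, and xenobiotic metabolism and hypoxia 4 and 0 each. Some genes stand in more than 1 list, and the lists were chosen with earlier results of these data known. Of all genes tested, 1.51% were called.

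The calls in the bile acid and iron lists were mostly lower, where 1.51% of all genes tested were called in either direction. SLC51B, a subunit of the basolateral bile acid exporter, had 6.10, 8.03 and 7.04 CPM with Dex, against 28.2, 14.9 and 19.6 with DMSO, and 11.1, 8.82 and 6.40 CPM with DexKLA, against 12.7, 12.5 and 12.4 with KLA. Libraries with Dex lay beneath all others, narrowly so with KLA (−1.01 ± 0.15, adjusted p = 0.00033). NR1H4, the bile acid receptor FXR, which drives SLC51B, fell as well (−0.52 ± 0.10, adjusted p = 0.00737). Its change was −0.66 for Dex versus DMSO and −0.37 for DexKLA versus KLA. KLB, the co-receptor for FGF19, fell in the mean (−0.36 ± 0.09, adjusted p = 0.0308). That fall came from Dex versus DMSO (−0.71), with −0.009 for DexKLA versus KLA. The test of that difference did not pass (adjusted p = 0.0544). BAAT, which conjugates bile acids to amino acids, rose (0.56 ± 0.10, adjusted p = 0.00381), with 2 annotated loci for its transcript. These were 4 calls among 14 tested. Of 23 iron genes, FURIN, ID2 and HAMP fell and none rose. HAMP, the precursor of the iron hormone hepcidin, had 3.33, 4.36 and 4.18 CPM with Dex, against 10.7, 7.89 and 8.73 with DMSO, and 4.68, 3.95 and 1.66 CPM with DexKLA, against 8.91, 5.89 and 5.25 with KLA. The 6 libraries with Dex lay beneath the 6 without (−1.09 ± 0.21, adjusted p = 0.00489). SLC6A14, a sodium- and chloride-driven amino acid importer, had 1.39, 0.688 and 0.880 CPM with Dex, against 1.69, 3.95 and 2.18 with DMSO, and 0.685, 0.464 and 0.665 CPM with DexKLA, against 3.46, 3.09 and 4.13 with KLA. Every library with Dex lay beneath every library without it, and this was the lowest fitted change of any gene tested (−2.07 ± 0.27, adjusted p = 7.36e-05). SLC6A14 was the only call among 32 tested genes of amino acid transport and the amino acid stress response (3.1%, beside 1.51% of all genes).

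Genes of intermediary metabolism were called in small numbers, where 1.51% of all genes tested were called. GNMT, which uses S-adenosylmethionine to methylate glycine, had 15, 13.8 and 11.4 CPM with Dex, against 7.32, 4.49 and 2.84 with DMSO, and 12.3, 12.1 and 11.1 CPM with DexKLA, against 4.23, 4.64 and 5.42 with KLA. Its groups did not overlap (1.40 ± 0.15, adjusted p = 5.66e-06), and its span lies within the readthrough gene CNPY3-GNMT. MAOA, which oxidises amine transmitters, ranged over 61.6 to 69.9 CPM with Dex and over 31.0 to 48.7 CPM without it (0.73 ± 0.08, adjusted p = 1.21e-05). ACAA2, the thiolase of mitochondrial fatty acid oxidation, ranged over 102 to 125 CPM with Dex and over 76.9 to 93.0 CPM without it (0.45 ± 0.07, adjusted p = 0.000941), and was the only call among 22 in that pathway. Of 26 gluconeogenic and amino acid catabolic genes, NAGS, which makes the activator of the urea cycle, rose (0.52 ± 0.13, adjusted p = 0.0345) and PCK1, a glucocorticoid-induced gluconeogenic enzyme in liver, fell. PCK1 had 30.5, 23.6 and 34.1 CPM with Dex, against 74.3, 40.9 and 53.5 with DMSO, and 23.8 to 37.1 CPM with DexKLA, against 27.9 to 35.9 with KLA. The Dex and DMSO groups were apart, and the DexKLA and KLA groups overlapped (mean −0.56 ± 0.14, adjusted p = 0.0345). Of 25 genes of fatty acid and triglyceride synthesis, ACSL3 (−0.34 ± 0.08, adjusted p = 0.0199) and DGAT2 (−0.33 ± 0.08, adjusted p = 0.0345) fell. Neither was called without Dex replicate 2, Dex replicate 3, DMSO replicate 3, DexKLA replicate 1 or KLA replicate 1. ACSL3 changed by −0.64 for Dex versus DMSO and by −0.04 for DexKLA versus KLA. The test of that difference did not pass (adjusted p = 0.0579). No member was called among 23 genes of carbohydrate use, 27 of cholesterol synthesis, 32 of the cell cycle, 28 ribosomal protein genes and 13 nuclear noncoding RNAs. The medians of the last 2 lists had opposite signs in the KLA states. The median change of the ribosomal protein genes was 0.29 for Dex versus DMSO, with 3 called higher, and −0.18 for DexKLA versus KLA, with none called. For the nuclear noncoding RNAs it was 0.29, with none called, and −0.11, with 1 called lower.

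Among transcription factors, CEBPA fell and its relative CEBPD rose. These were the only calls among 27 tested hepatocyte factors (7.41%, beside 1.51% of all genes). CEBPA had 197, 191 and 172 CPM with Dex, against 372, 292 and 347 with DMSO, and 203, 171 and 158 CPM with DexKLA, against 252, 273 and 215 with KLA. The 6 libraries with Dex lay beneath the 6 without (−0.66 ± 0.09, adjusted p = 6.13e-05). CEBPA has an exon overlap of 541 bases with AC008738.3 on the other strand, so some reads could belong to either. HOXD1, a homeobox factor, had 2.22, 3.44 and 3.96 CPM with Dex, against 5.63, 7.72 and 5.46 with DMSO, and 3.65, 3.48 and 2.16 CPM with DexKLA, against 10.1, 7.59 and 6.03 with KLA (−1.17 ± 0.19, adjusted p = 0.000982). HAGLR, a noncoding RNA on the opposite strand next to it, ranged over 25.4 to 30.3 CPM with Dex and over 33.4 to 56.6 CPM without it (−0.61 ± 0.10, adjusted p = 0.000861). They share exon sequence across strands and cannot be separated fully. CRY2, a clock repressor, ranged over 20.9 to 25.3 CPM with Dex and over 11.8 to 17.5 CPM without it (0.63 ± 0.10, adjusted p = 0.000599), and was the only call among 19 clock genes. ID2, an inhibitor of helix-loop-helix factors, fell by 0.48 ± 0.09 on the log2 scale (adjusted p = 0.00364).

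The remaining genes among the 30 with the smallest p belonged to no list. PGC, the stomach protease precursor progastricsin, had 126, 137 and 132 CPM with Dex, against 69.8, 45.9 and 51.7 with DMSO, and 140, 115 and 108 CPM with DexKLA, against 53.2, 55.6 and 35.3 with KLA. The lowest library with Dex (108) was well above the highest without it (69.8), and the gene was called (1.29 ± 0.11, adjusted p = 1.92e-07). NRBP2, a pseudokinase, ranged over 15.6 to 24.2 CPM with Dex and over 6.11 to 9.36 CPM without it (1.17 ± 0.12, adjusted p = 4e-06). DEPP1, a FOXO-regulated gene linked to autophagy, had 139, 148 and 154 CPM with Dex, against 293, 212 and 253 with DMSO, and 166, 124 and 101 CPM with DexKLA, against 224, 216 and 155 with KLA (−0.69 ± 0.11, adjusted p = 0.000745). KLA replicate 3 lay beneath DexKLA replicate 1 there. DEPP1 has an exon overlap of 695 bases with RASSF4 on the other strand, so some reads could belong to either. Of all 199 called genes, 131 belonged to none of the 34 lists, and 68 of the 645 tested list members were called.

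Some called genes lay close together on the genome. Of the 115 higher genes, 24 (20.9%) had another higher gene within 100 kb on the same chromosome, without overlap, and of the 84 lower genes, 9 (10.7%) had another lower gene. Among all genes tested, 2.32% had a higher gene and 1.15% a lower gene within that distance. These shares are descriptions, and readthrough pairs, gene families and shared reads contribute to them. The families were AKR1C1 with AKR1C2, the fibrinogen genes, the CYP3A genes, APOC1 with APOC2 and AFP with AFM. A stretch of chromosome 19 held 3 higher genes, singled out after their values were seen. They were FXYD3 and FXYD1, which modulate the sodium pump, with LGI4, a secreted protein of glia and nerve, between them (chr19:35115823-35143109, hg38). FXYD1 had 42.7, 46.2 and 45.1 CPM with Dex, against 18.6, 18.7 and 14.8 with DMSO, and 47.4, 45.3 and 20.4 CPM with DexKLA, against 24.7, 17.9 and 18.5 with KLA. DexKLA replicate 3 stood apart from its group and among the KLA libraries (1.11 ± 0.16, adjusted p = 0.000156). LGI4 ranged over 4.07 to 7.48 CPM with Dex and over 1.13 to 3.46 CPM without it (1.51 ± 0.22, adjusted p = 0.000209). FXYD3 ranged over 2.49 to 6.50 CPM with Dex and over 0.873 to 1.47 CPM without it (1.67 ± 0.27, adjusted p = 0.000638). It has an exon overlap of 857 bases with AC020907.6 on the same strand, so some reads could belong to either. HAMP lies further along the same arm and fell. HPN on one side and LSR on the other did not pass (0.08 ± 0.09 and −0.14 ± 0.08).

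**Figure D4:**
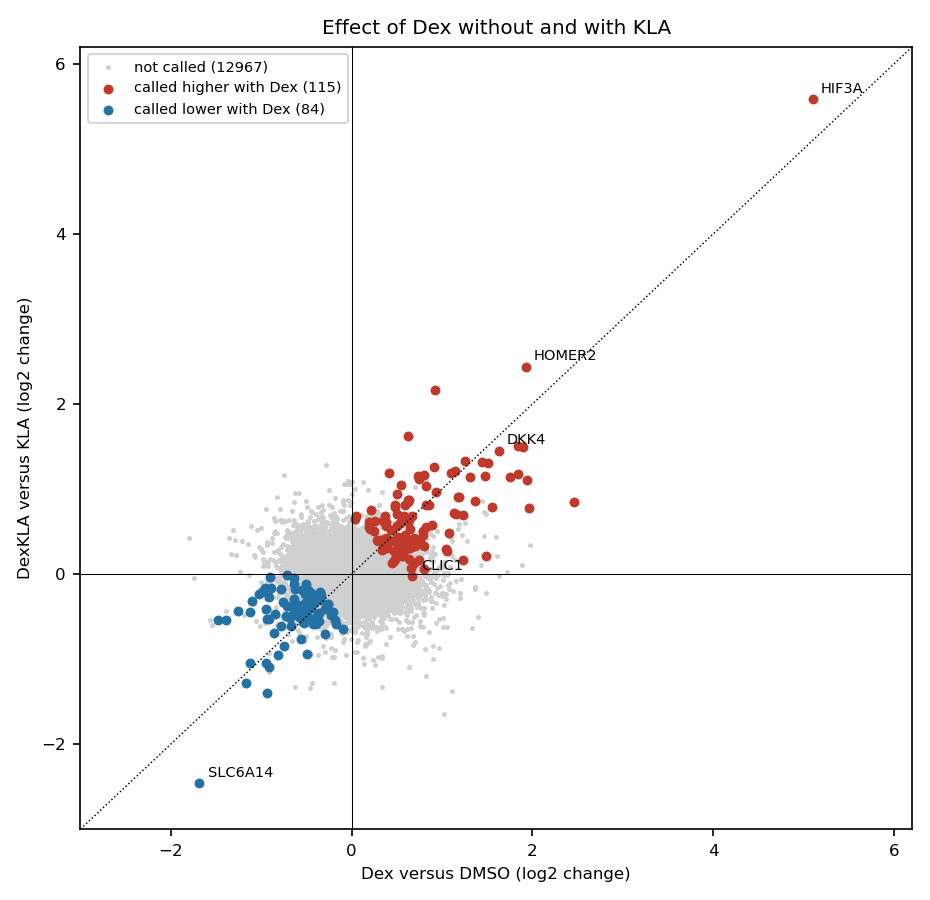
Log2 change in Dex versus DMSO (horizontal axis) against that in DexKLA versus KLA (vertical axis) for 13166 genes; red points are the 115 genes called higher for the mean effect, blue points the 84 called lower, and grey points the rest. HIF3A is alone at the top right, SLC6A14 at the bottom left, and CLIC1 is the 1 called gene whose signs differ.

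Both KLA states contributed to the calls. The change had the same sign in both states in 198 of 199 called genes, a count that averaging favours, and in 4928 of all 13166. The exception was CLIC1, with 0.67 for Dex versus DMSO and −0.02 for DexKLA versus KLA, whose transcript has 7 annotated loci and which lost its call in 10 of the 12 fits that left out 1 library (highest adjusted p = 0.18). The change was greater in size in Dex versus DMSO for 124 of the 199 and in DexKLA versus KLA for 75. The median over genes called higher was 0.65 for Dex versus DMSO and 0.61 for DexKLA versus KLA, and over genes called lower it was −0.56 and −0.43. None of the 199 passed the test of the difference between the states (lowest adjusted p = 0.0544). Over all genes tested, 5 passed it (0.038%). At an unadjusted p under 0.05 there were 2923 genes for the difference and 1164 for the mean effect. Removing each library's trend on transcript length left 2 genes called for the difference and 250 for the mean effect, and all 199 were among the 250. The arm counts rested on single libraries. Dex versus DMSO gave 60, 121, 94, 57 and 67 calls without DMSO replicate 1, 2 or 3 or Dex replicate 2 or 3, 723 without DexKLA replicate 3 and 913 without KLA replicate 3. DexKLA versus KLA gave 52 without DexKLA replicate 2 and 56 without DexKLA replicate 3.

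The calls differed in how much they rested on single libraries. All 30 genes with the smallest p in either direction kept their call when any 1 of the 12 libraries was left out. So did 107 of the 199 in all (70 higher and 37 lower). Of 67 called genes named by rule, 14 lost the call in at least 1 of those fits. These 14 were FGG, PCK1, NAGS, ACSL3, DGAT2, GPX2, HMOX1, KLB, AREG, PHLDA1, IL1RN, DDIT4, BNIP3 and SLC39A14. Without Dex replicates 1, 2 and 3 in turn, 9, 10 and 11 of the 14 were lost. Without DMSO replicates 1, 2 and 3 it was 10, 7 and 10, without DexKLA replicates 1, 2 and 3 it was 11, 9 and 3, and without KLA replicates 1, 2 and 3 it was 8, 10 and 0. Of list members outside that rule, VTN, SERPIND1, KNG1, CCN2 and HSD17B11 also lost the call, being called in 5, 3, 4, 6 and 3 of the 12 fits. The highest adjusted p among these fits was 0.099 for FGG, 0.166 for PCK1, 0.165 for BNIP3 and 0.109 for DDIT4. PHLDA1 was called in 2 of the 12 fits and AREG in 11. The number of calls was 317 without KLA replicate 3, and between 137 and 256 without any other library. Without both DMSO replicate 1 and KLA replicate 3, the libraries at the ends of the first principal component, there were 219 calls (116 higher and 103 lower), with 168 of the 199 among them. Counts over lists that this moved most were coagulation, with 2 higher and 3 lower, and gluconeogenesis and amino acid catabolism, with none in either direction.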

How the data were processed

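HepG2 RNA was sequenced in 12 libraries, 3 per group, grouped by their labels. Tools in the submitters' processing notes are Trimmomatic, BWA 0.7.17 and HOMER 4.10, with hg38 as the build. The deposited values for 70507 transcripts came in steps of 0.5 and were treated as estimated counts, since how the authors made them is not given in the sources used here. In each library 32.6% to 36.4% of values were not whole, and these were rounded. Transcripts without a symbol (406, 1.71% to 2.55% of a library's total) were left out, and for each symbol the transcript with the highest total was kept. With edgeR 4.0.16 in R 4.3.3, filterByExpr (minimum count 10), TMM scaling and a quasi-likelihood fit of 4 group means (8 residual degrees of freedom) were used, with Benjamini-Hochberg adjustment for each of 4 comparisons. The fit was also run on simulated counts that held a Dex effect but no KLA effect and no length trend. That run therefore does not bear on how the fit behaves with either. No replicates were copies of each other. Intervals of pooled count ratios are exact binomial and were added after the data were seen, and limits for 0 counts use 3 counts over a group. CPM uses TMM scaling unless called plain. Overlapping exons (50 bases or more) came from GENCODE, promoter windows of 300 bases from RefSeq, GRCh38.p14. Not every exon overlap of a named gene is mentioned.

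Named were the 15 called genes with the smallest p in each direction, up to 4 called members of each list, the 3 genes with the smallest p for the difference between states, and 8 receptor and response genes. Other named genes were picked after their values were seen. The members and lists were chosen with earlier results of these data known. The alternatives were DESeq2 1.42.0 (size factors, Wald test), library size alone, limma 3.58.1 voom, other filters, a replicate block, an additive model, library total as covariate, the longest transcript, thinning, removal of the length trend (loess span 0.3), and leaving out libraries.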

Additional observations from a re-analysis of the deposited data

Results flagged for a closer look

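For 5 genes the effect of Dex differed between the KLA states in the quasi-likelihood test of edgeR after Benjamini-Hochberg adjustment (adjusted p = 0.0449 for each). CYP24A1, which degrades active vitamin D, had 11.1, 11.2 and 10.8 CPM with Dex, against 57.2, 20.5 and 40.8 with DMSO, and 12.8, 10.2 and 13.2 CPM with DexKLA, against 9.87, 11.3 and 6.31 with KLA. The effect with KLA exceeded that without KLA by 2.23 on the log2 scale, and the DMSO libraries alone stood apart. HIPK1, a nuclear kinase, gave a difference of 1.11, with −0.66 for Dex versus DMSO and 0.45 for DexKLA versus KLA. RPPH1, the RNA of RNase P, gave −2.66, with 7.48, 4.01 and 5.06 CPM with Dex, against 1.41, 1.44 and 4.58 with DMSO, and 2.06, 2.55 and 1.66 CPM with DexKLA, against 6.73, 6.67 and 5.25 with KLA. MYCBP2, a ubiquitin ligase, gave 1.21, and PRKAR1A, a regulatory subunit of protein kinase A, gave 0.82. Each of the 5 kept its sign under all alternatives tried and lost the call under 11 of 24 for CYP24A1, 13 of 24 for HIPK1 and PRKAR1A, 14 of 24 for MYCBP2 and 13 of 23 for RPPH1. Spearman's rho between transcript length and this difference was 0.58 across 13166 genes. None of the 5 was called for the mean effect of Dex.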

How the results depend on the processing

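The 199 calls of the mean effect stayed within 1.5 times that count, between 134 (additive model) and 256 (without DexKLA replicate 3), except 312 with no filter on low counts and 317 without KLA replicate 3. Of the 199, 98 were called in every fit that gave them an adjusted p. Among these 98, CYP3A43, FXYD3, HSD17B6 and LOC285847 had none in 1 fit. They were called in 12 of the 13 alternatives other than leaving out 1 library. Leaving out 1 library gave 137 to 317 calls for the mean effect, 57 to 913 for Dex versus DMSO, 52 to 96 for DexKLA versus KLA and 0 to 676 for the difference between states. Dex versus DMSO gave 656 calls with the DESeq2 Wald test, 907 with no filter, 134 with the replicate block and 107 with library total as a covariate. DexKLA versus KLA gave 204 with no filter, 32 with that covariate and 110 without DMSO replicate 1 and KLA replicate 3. The difference between states gave 0 with DESeq2 size factors, limma voom, the replicate block, library total as a covariate, or without DMSO replicate 1 and KLA replicate 3. It gave 230 with library size alone, 664 with the Wald test, 1041 with no filter, 84 with libraries thinned to 3313049 counts and 2 with the length trend removed. The cause of these shifts was not tested.

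Replicate numbers did not pair the libraries. Deviations of libraries with the same number correlated between −0.31 and 0.17, over 0.1 in 1 of 18 pairs, and 0 of 12 libraries correlated best with their own number. With the replicate block the mean effect had 173 calls. Genes that reversed were all uncalled. Over the fits that leave out libraries, NR3C1 ran from −0.143 to 0.0573, DUSP1 from −0.1995 to 0.106, RPPH1 from −0.4865 to 0.0869 and AKR1C3 from −0.0394 to 0.089. AKR1C3 was −0.0371 with library size alone and −0.0254 with the length trend removed. The shallowest library held 3317739 counts, which limits genes of a few CPM most.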
